A study of Gallus gallus with 9 samples.

Results

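A set of 49 genes, 0.377% of the 13009 genes measured, was high 3 h after chick mesoderm explants were put into culture and lower again at 24 h. The set was chosen from the values themselves. A gene was kept when both 3 h arrays lay at least 1 above the 0 h array on the log2(signal + 28) scale, both 24 h arrays lay at least 1 below the mean of the 3 h arrays, and the mean 3 h signal was at least 150. Each gene was represented by 1 probe set, the one with the highest mean over the 9 arrays. The rule leaves out 9 genes by name (ASNS, PSPH, CHAC1, CEBPB, STC2, ALDH18A1, IRF1, CCL17 and ARC), and 8 of these, all but CEBPB, met its thresholds.

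The explants were splanchnic mesoderm holding the anterior heart field, a progenitor population of the outflow tract and right ventricle, and the series addressed how BMP and FGF signalling relate while these progenitors become heart muscle. BMP4-treated explants were taken at 3, 12 and 24 h, and untreated explants at 0, 3, 12 and 24 h. Every cultured explant lay on a collagen drop in medium with fetal calf serum, chick embryo extract and antibiotics, and the treated ones also received human recombinant BMP4 at 200 ng/ml, so serum and plating were common to both arms. Each group had 1 array, except that both 12 h groups had 2 (A and B). The sources used here do not say whether A and B came from separate pools of embryos. Any p-value or SE given here therefore rests on the spread between A and B arrays, which may be technical. The fit draws the spread of each gene towards the trend over all probe sets, so it is not that of the gene alone.

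Cutting tissue and placing it in serum is known to start a short programme of transcription. Immediate early transcription factors come up within minutes, and their targets, among them chemokines, proteases, EGF receptor ligands and feedback regulators of G protein and kinase signalling, follow within hours. Cells that sense a shortage of amino acids switch on, through the factor ATF4, genes for amino acid uptake, serine and folate metabolism and tRNA charging. CDKN1A, which encodes the cell cycle inhibitor p21, is induced by p53 and by serum.

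Array quality and tissue identity were examined for the series as a whole. The 2% trimmed mean signal ran from 503.66 to 504.72 over the 9 arrays, and the 12 h pairs correlated at 0.972 with BMP4 and 0.970 without. The ACTB 3′ to 5′ ratio, which rises as RNA is degraded or incompletely copied, was 4.96 with BMP4 and 4.51 without at 3 h, against 4.85 at 0 h, and over all arrays it ran from 3.72 to 5.67. The GAPDH 3′ to 5′ ratio was highest on the 3 h arrays, at 1.84 with BMP4 and 2.22 without, against 1.75 at 0 h. On the remaining arrays, 0 h included, it ran from 1.32 to 1.81. The part of this ratio in the 3 h levels was not tested. At 12 h the ACTB ratio was higher on array A (5.50 with BMP4 and 5.44 without) than on array B (4.26 and 3.80). Its part in the gaps between A and B was not tested. Among the heart field markers, 9 of 11 were measured, and ISL1 (5402 to 11120), NKX2-5 (4049 to 9211) and TCF21 (738 to 2226) were far above the added 28 on every array. TBX1 read 36.8 to 224. FGF10 (13.3 to 188) and MEF2C (9.56 to 117) were under the added 28 on some arrays. Markers of other tissues also gave signal. At 0 h the summed signal was 14657 for heart field markers, 30861 for cardiomyocyte markers and 30167.5 for pharyngeal endoderm and surface ectoderm markers. It was 13222 for neural crest markers and 9278 for neural markers. The sums run over different genes, so they do not give the share of each tissue or the purity of the explants. These are bulk samples, in which fewer cells of a type and less RNA per cell cannot be told apart.

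The 0, 3 and 24 h arrays chose the members, so their differences among those times are described without a test. Over all genes, 2.33% were at least 1 above 0 h in both 3 h arrays, 0.461% met both log2 steps, and 0.438% met the whole rule before the named genes were left out. Of 207 genes that came up at 3 h and passed the signal minimum, 57 met the 24 h step in both arms and 150 did not. The mean 3 h level of the 49 members was 2.15-fold to 25.4-fold that at 0 h on the signal + 28 scale. On the log2 scale the median difference was 2.19 in inflammatory genes, 2.80 in cell cycle genes, 1.68 in amino acid genes and 1.31 in membrane and other genes, groups described below. All 49 passed the filter on low signal used for the 12 h test. That filter needs only 2 arrays, and the 3 h arrays meet it through the rule, so passing says nothing of the level at 12 h. For 8 members the 0 h signal was under 28, and there the size of the fold depends on the amount added.

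At the thresholds, DOC2B (1.01), SLC35F3 (1.08) and COMMD7 (1.09) lay just inside on the lower of the 3 h rises, while SLC47A1 (0.99), BCAT1 (0.94) and ATP5J2 (0.94) lay just outside. On the smaller of the 24 h falls, AFAP1 (1.03), TNFRSF6B (1.05) and ITPR3 (1.05) were just inside, and SLC7A4, SIAH2 and HARBI1 just outside at 0.98 each. By mean 3 h signal, PTAFR (158), ADAMDEC1 (164) and RUNX2 (169) were just inside, and MORC1 (119), ACAA1 (85.2) and LOC417192 (59.9) just outside.

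**Figure D1:**
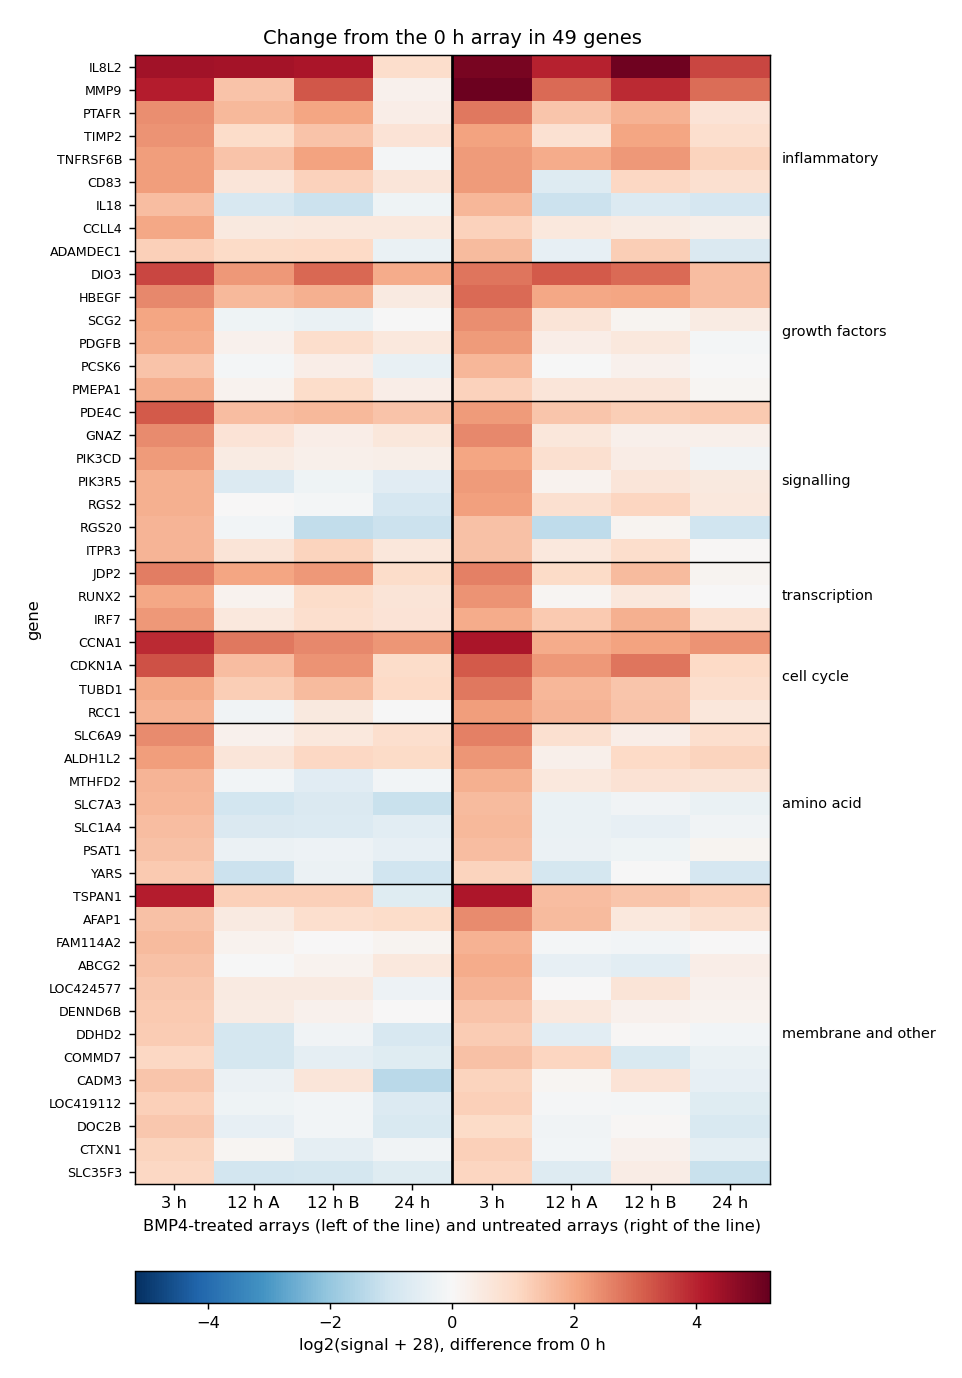
Difference of each array from the 0 h array in log2(signal + 28) for the 49 genes (rows, grouped by role), with BMP4-treated arrays left of the line and untreated arrays right of it. The 3 h columns are red throughout because the rule required it; the 12 h columns, which the rule did not use beyond the choice of probe set, are pale or blue for most amino acid genes and stay red for IL8L2, DIO3 and CDKN1A.

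The members were sorted by known role after their names were seen. Cytokines, their receptors and inflammatory enzymes made up 9 of the 49, and they included the 2 members with the highest folds at 3 h. In what follows, the values of an arm run in the order 3 h, 12 h A, 12 h B and 24 h. IL8L2, a chemokine of the interleukin-8 type, read 1.86 at 0 h. In BMP4-treated explants it read 596 at 3 h, 575 and 546 at 12 h and 28.2 at 24 h, and in untreated explants 893, 452 and 971, and 299. Its 12 h arrays thus overlapped its 3 h arrays, and the fall lay between 12 and 24 h. The mean 3 h level was 25.4-fold that at 0 h, a size that depends on the added 28.

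MMP9, a gelatinase that cleaves basement membrane collagen, read 7.78 at 0 h. With BMP4 it stood at 587 at 3 h, 70.7 and 311 at 12 h and 13.7 at 24 h, and without BMP4 at 1209, 247 and 502, and 240.0. At 3 h and at 24 h the BMP4 array was the lower one, and at 12 h the arms overlapped. TIMP2, a metalloproteinase inhibitor, read 209.7 at 0 h, then 1158, 432 and 632, and 365 with BMP4, and 976, 389 and 948, and 403 without. Untreated array B at 12 h stayed near the 3 h level while the other 12 h arrays were well below it.

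PTAFR, the receptor for platelet-activating factor, read 2.73 at 0 h, then 138 at 3 h, 71.4 and 101 at 12 h and 11.0 at 24 h with BMP4, and 178, 55.8 and 78.7, and 22.5 without. TNFRSF6B, known in human as a decoy receptor for FAS ligand, read 66.9 at 0 h, 404 at 3 h, 239 and 375 at 12 h and 59.6 at 24 h with BMP4, and 409.6, 336 and 428, and 182 without. One untreated 12 h array was above both 3 h arrays. CCLL4, a chemokine of the CCL4 type, read 265 at 0 h, then 1169, 391 and 395, and 404 with BMP4, and 652, 402 and 364, and 330.0 without. Its BMP4 array was the higher one at 3 h, and the arms came together at 12 h.

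Unlike IL8L2, IL18, a cytokine of the interleukin-1 family, had every 12 h array below both of its 3 h arrays. It read 111 at 0 h, then 395 at 3 h, 50.9 and 35.5 at 12 h and 92.2 at 24 h with BMP4, and 433, 37.1 and 55.9, and 48.9 without. All 4 of its 12 h arrays were thus below the 0 h array. CD83, a maturation marker of dendritic cells, and ADAMDEC1, a metalloprotease of the ADAM type, had mean 3 h signals of 227 and 164, near the minimum of 150. Untreated arrays A and B differed at 12 h for both, at 7.49 and 90.0 for CD83 and 24.2 and 139.6 for ADAMDEC1.

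Marker levels of white blood cells were read beside this group. Of 8 markers 6 were measured, and their summed signal was 901 with BMP4 and 754 without at 3 h, against 677 at 0 h. It was 1170 to 1437 at 12 h and 1815 to 1834 at 24 h. CD74 carried most of that sum (474 to 580 at 3 h and 434 at 0 h), while the pan-leukocyte marker PTPRC read 6.11 to 35.1 on the 9 arrays. Whether white blood cells contributed to the levels of the inflammatory members was not tested.

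Growth factors and proteins that process or damp them made up 6 members. HBEGF, a membrane-bound ligand of the EGF receptor, read 70.7 at 0 h. It then read 524 at 3 h, 291 and 323 at 12 h and 109.7 at 24 h with BMP4, and 734, 371 and 378, and 276 without. The BMP4 arrays were the lower ones at each time. PDGFB, a platelet-derived growth factor chain, read 424 at 0 h, 1707 at 3 h, 502 and 819 at 12 h and 624 at 24 h with BMP4, and 2073, 548 and 626, and 393 without.

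PCSK6, a convertase that cleaves TGF-beta family precursors, read 1069 at 0 h. It then read 3057, 983 and 1376, and 815 with BMP4, and 3615, 1065 and 1237, and 1059 without, so the 12 h arrays were back around the 0 h level. PMEPA1, which in mammals is induced by TGF-beta and restrains SMAD signalling, read 285 at 0 h, then 1116, 323 and 576, and 365 with BMP4, and 689, 460.4 and 457, and 306 without. SCG2, a secretogranin of dense-core vesicles, read 252 at 0 h, then 1134, 214 and 191, and 252 with BMP4, and 1452, 423 and 278, and 344 without.

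DIO3, the deiodinase that inactivates thyroid hormone, was placed in this group because it acts on a secreted signal. It read 5.99 at 0 h, then 351 at 3 h, 133 and 244 at 12 h and 99.8 at 24 h with BMP4, and 205, 281 and 232, and 74.0 without. In untreated explants both 12 h arrays were above the 3 h array, so that a peak at 3 h is not what the untreated arm shows for this gene.

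Intracellular signalling genes numbered 7. PDE4C, a phosphodiesterase that breaks down cyclic AMP, read 11.0 at 0 h, then 327 at 3 h, 91.1 and 96.9 at 12 h and 81.2 at 24 h with BMP4, and 154, 78.6 and 67.6, and 72.3 without. Its arrays from 12 h on stayed above 0 h in both arms. GNAZ, an inhibitory G protein alpha subunit, read 134 at 0 h, then 856, 237 and 176, and 219 with BMP4, and 878, 213 and 166, and 164 without.

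RGS2 and RGS20 speed up GTP hydrolysis by G protein alpha subunits. RGS2 read 415 at 0 h, then 1589.6 at 3 h, 427 and 379 at 12 h and 214 at 24 h with BMP4, and 1941, 769 and 941, and 624 without. In BMP4-treated explants RGS2 was thus at its 0 h level at 12 h and below it at 24 h, while all untreated arrays stayed above it. RGS20 read 60.4 at 0 h, then 272, 51.0 and 8.06, and 12.2 with BMP4, and 227, 7.83 and 69.0, and 15.1 without, with a wide gap between A and B in each arm.

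PIK3CD and PIK3R5 encode the delta catalytic subunit and a regulatory subunit of class I phosphoinositide 3-kinases, both best known from white blood cells. PIK3R5 read 249 at 0 h, then 971, 143 and 209, and 155 with BMP4, and 1239, 288 and 406, and 367 without. PIK3CD read 161 at 0 h, then 848, 223 and 199, and 204 with BMP4, and 756, 308 and 219, and 137 without. ITPR3, a calcium release channel gated by inositol trisphosphate, read 168 at 0 h, then 639.5, 287 and 405, and 266 with BMP4, and 530.0, 259 and 338, and 177 without. Of these 3, PIK3R5 had 12 h arms that did not overlap, with BMP4 lower.

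The transcription factors were 3. JDP2, which binds AP-1 sites and represses them, read 7.87 at 0 h, then 197 at 3 h, 119 and 142 at 12 h and 42.5 at 24 h with BMP4, and 193, 42.8 and 84.6, and 11.4 without. The arms agreed at 3 h and did not overlap at 12 h. IRF7, an activator of type I interferon genes, read 153 at 0 h, then 835, 239.7 and 300.5, and 271 with BMP4, and 672, 432 and 629.5, and 282 without. RUNX2, a regulator of bone formation, read 15.3 at 0 h and 145 with BMP4 and 193 without at 3 h.

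Genes of the cell cycle and of microtubules numbered 4. CDKN1A read 343 at 0 h, then 3649 at 3 h, 1103 and 1828 at 12 h and 693 at 24 h with BMP4, and 3313, 1762 and 2540.4, and 739 without. Its level at 24 h was still above 0 h in both arms, by 0.96 with BMP4 and 1.05 without on the log2 scale. CCNA1, cyclin A1, a cyclin best known from the germ line, read 36.5 at 0 h, then 926, 403 and 339.9, and 292 with BMP4, and 1204, 216 and 246, and 294 without.

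RCC1, the chromatin-bound exchange factor that loads Ran with GTP, read 535 at 0 h. It then read 1951 at 3 h, 474 and 783 at 12 h and 530.4 at 24 h with BMP4, and 2537, 1874 and 1553, and 809.6 without. At 12 h the untreated arrays were still well above 0 h and the BMP4 arrays were around it. TUBD1, delta tubulin, read 297 at 0 h and 1252 with BMP4 and 2142 without at 3 h, but none of its 4 further probe sets showed the pattern.

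**Figure D2:**
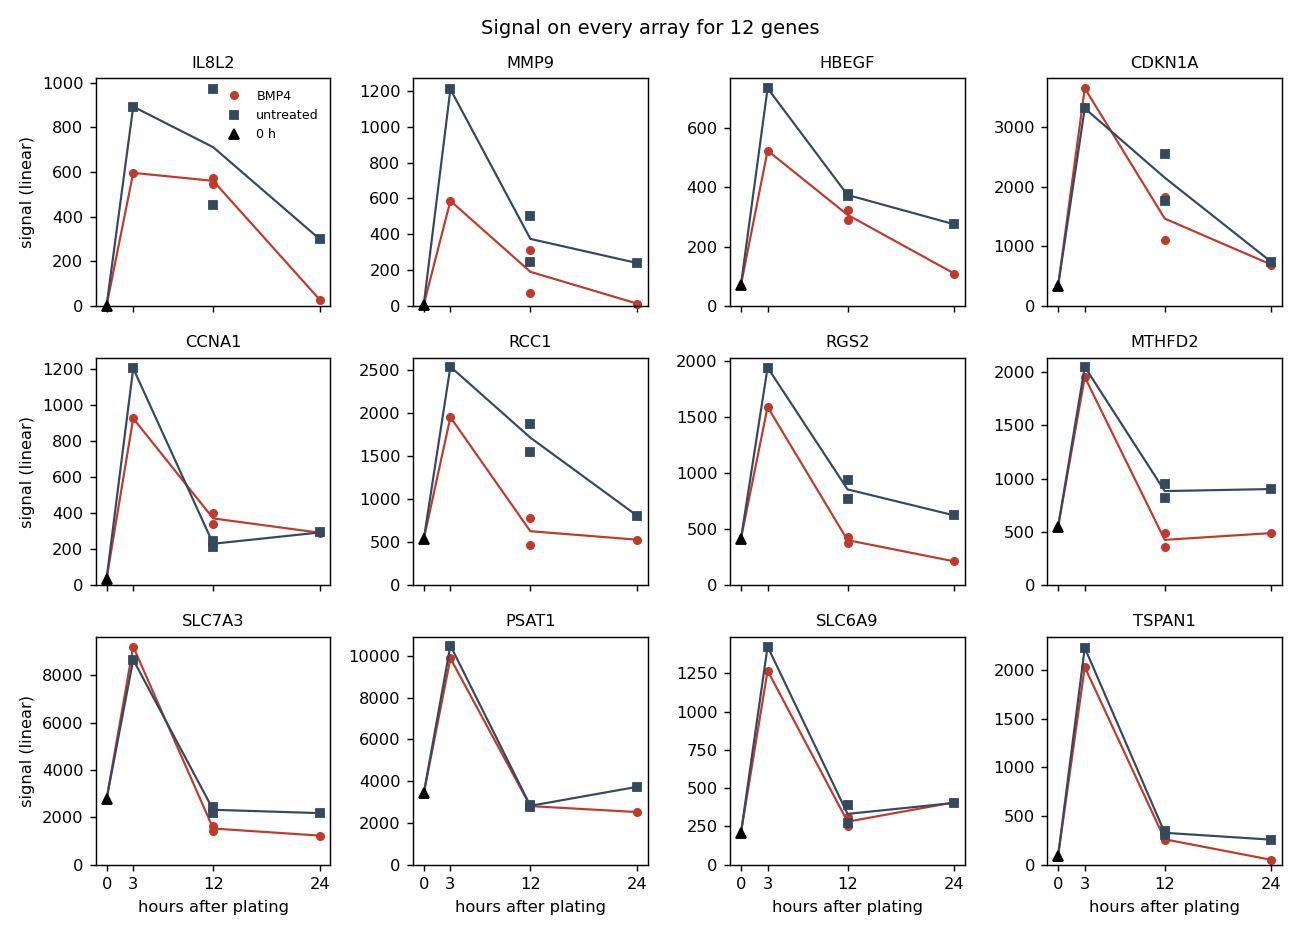
Linear signal against hours after plating for 12 of the genes, with red circles for BMP4, blue squares for untreated and a black triangle for the shared 0 h array; lines join the means at each time, and the 12 h arrays are drawn singly. RCC1, RGS2 and MTHFD2 show untreated 12 h arrays above the BMP4 ones without overlap. At 12 h the arms of PSAT1 nearly coincide and those of SLC6A9 overlap.

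Amino acid transporters, folate and serine enzymes and a tRNA synthetase made up 7 members. PSAT1, an enzyme of serine synthesis, read 3417 at 0 h, then 9877 at 3 h, 2750.0 and 2865 at 12 h and 2523 at 24 h with BMP4, and 10492, 2759.8 and 2883, and 3729 without. The 12 h arrays of both arms lay close together and below the 0 h array. MTHFD2, a mitochondrial enzyme of folate metabolism, read 552 at 0 h, then 1954, 495 and 359, and 491 with BMP4, and 2050.0, 818 and 952, and 904 without. ALDH1L2, which acts in the same mitochondrial pathway, read 139.8 at 0 h, then 735, 231 and 323, and 302 with BMP4, and 786, 175 and 315, and 342 without. At 12 h the arms of MTHFD2 did not overlap, with BMP4 lower, and those of ALDH1L2 did.

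SLC7A3, a carrier of arginine and lysine, read 2775 at 0 h, then 9213, 1406 and 1657, and 1232 with BMP4, and 8664, 2187 and 2460.1, and 2182 without. SLC1A4, a carrier of alanine, serine and cysteine, read 1327 at 0 h, then 4137, 785 and 808, and 904 with BMP4, and 4347, 1039 and 992, and 1174 without. Both carriers were below 0 h on every array from 12 h on. SLC6A9, the glycine transporter, read 207 at 0 h, then 1267, 251 and 312, and 408 with BMP4, and 1425, 391 and 273, and 404 without, and stayed above 0 h.

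YARS, the tyrosyl-tRNA synthetase, read 2923 at 0 h, then 7513, 1322 and 2386, and 1401 with BMP4, and 6567, 1543 and 2918, and 1592 without. Arrays A and B differed in both arms at 12 h, A being the lower each time. For the 7 amino acid genes as a group, the median difference from 0 h at 12 h was −0.31 and −0.29 on the BMP4 arrays and −0.31 and −0.00 on the untreated arrays, on the log2 scale. In all 7 genes, every 12 h array was below both 3 h arrays.

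The remaining 13 members are membrane, trafficking and other genes. TSPAN1, a tetraspanin of epithelial membranes, read 94.6 at 0 h, then 2031 at 3 h, 259 and 264 at 12 h and 51.1 at 24 h with BMP4, and 2228, 349 and 309, and 258 without. AFAP1, which links SRC to actin filaments, read 111 at 0 h, then 369.9, 166 and 228, and 243 with BMP4, and 737, 408 and 173, and 211 without. SLC35F3, known in human as a thiamine transporter, read 489.6 at 0 h, then 1068, 238 and 249, and 308 with BMP4, and 1101, 301 and 647, and 206 without. TSPAN1 and SLC35F3 had 12 h arms that did not overlap, with BMP4 lower, and those of AFAP1 overlapped.

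In the other 10 genes of this group the mean 3 h level was 2.28-fold to 3.29-fold that at 0 h. They include ABCG2, a drug efflux pump, CADM3, a neural adhesion molecule, DOC2B, a calcium sensor of exocytosis, DDHD2, a lipid hydrolase, and CTXN1, a small membrane protein. The others are COMMD7, DENND6B, FAM114A2, LOC419112 and LOC424577. COMMD7 had the widest gap of all members between 12 h arrays, at 2215 and 563 in untreated explants, against 513 and 712 with BMP4.

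How much of the rise was left at 12 h was computed on the log2 scale as the 12 h mean minus 0 h over the 3 h mean minus 0 h. The median over the 49 members was 23.8% with BMP4, over a range of −86.2% to 98.1%, and 25.8% without, over a range of −52.9% to 110%. In each arm 35 members had under 50% of the rise left, and 16 with BMP4 and 12 without were at or under their 0 h level. By role, the medians with BMP4 and without were 57.4% and 59.1% for inflammatory genes, 63.5% and 66.2% for cell cycle genes and −20.5% and −15.7% for amino acid genes. They were 29.6% and 36.7% for growth factors, 15.2% and 29.6% for signalling genes, and 5.45% and 3.48% for membrane and other genes.

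IL8L2 had 98.1% of its rise left with BMP4 and 91.7% without. DIO3 (75.4% and 110%), TNFRSF6B (81.9% and 95.3%) and HBEGF (71.0% and 68.8%) followed. The lowest were IL18 (−60.7% and −52.9%), SLC35F3 (−86.2% and −12.1%), YARS (−52.4% and −39.3%) and RGS20 (−41.3% and −38.2%), the negative sign meaning a 12 h mean under 0 h. The medians of inflammatory and amino acid genes differed at 12 h, but their members overlapped. With BMP4, CCLL4 (25.8%) and IL18 lay under ALDH1L2 (38.7%), and without BMP4, CD83 (9.63%), ADAMDEC1 (25.2%) and IL18 lay under ALDH1L2 (28.6%) and MTHFD2 (35.3%). The roles were assigned after the members were known, so no test was run on this.

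**Figure D3:**
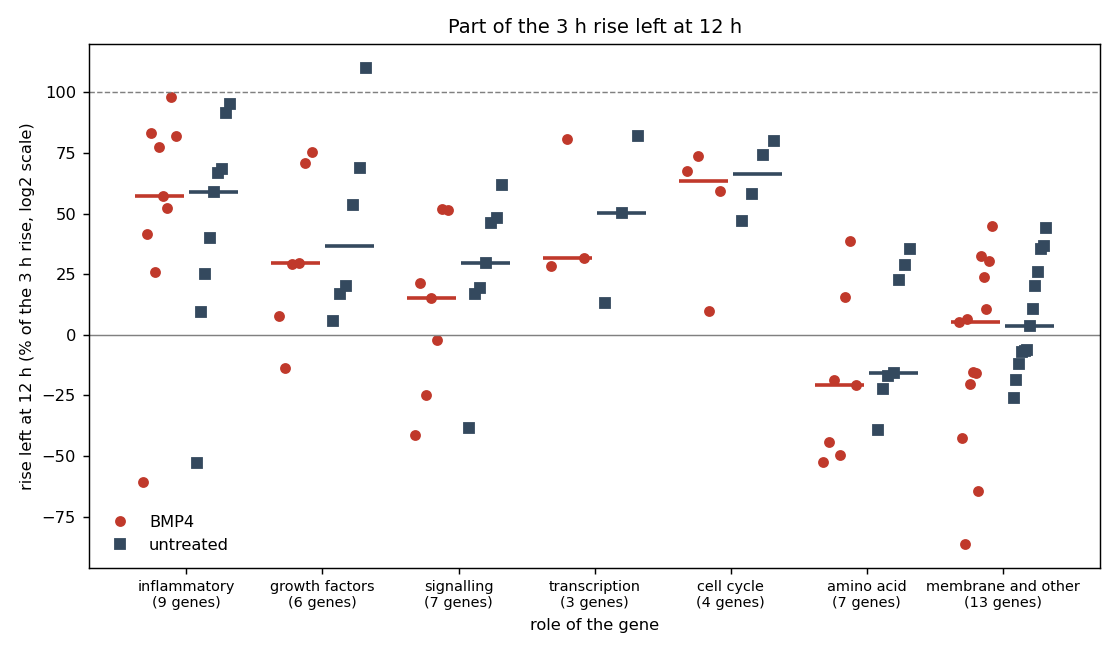
Percentage of the 3 h rise left at 12 h (log2 scale) for each gene by role, red circles for BMP4 and blue squares for untreated; bars are medians, 100% is the 3 h level and 0% the 0 h level. Most inflammatory and cell cycle genes lie above 40% and 5 of the 7 amino acid genes with BMP4 lie below 0%.

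In 43 of the 49 members (87.8%), all 4 of the 12 h arrays were below both 3 h arrays, against 13.8% of all genes. Among the 150 genes that came up at 3 h and did not meet the 24 h step, the count was 59 (39.3%). The 3 h and 24 h arrays chose the members, so these counts describe the set and test nothing. The 6 exceptions were IL8L2, TNFRSF6B, ADAMDEC1, DIO3, AFAP1 and COMMD7. For IL8L2, TNFRSF6B and DIO3 at least 1 untreated 12 h array was above the untreated 3 h array. For ADAMDEC1, AFAP1 and COMMD7 an untreated 12 h array was above the BMP4 3 h array only. Within each arm, every 12 h array of ADAMDEC1, AFAP1 and COMMD7 was below the 3 h array. The larger of the gaps between arrays A and B at 12 h had a median of 0.51 over the members and 0.39 over all genes, and it was under the 3 h peak in 47 of the 49. The rule required a peak of at least 1, so that count too tests nothing. A gap of at least 1 was seen in 9 members (18.4%), against 8.36% of all genes.

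At 24 h, 17 members with BMP4 and 20 without were within 0.5 of their 0 h level on the log2 scale. Another 4 with BMP4 and 10 without were at least 1 above it, and 4 with BMP4 and 2 without at least 1 below. CCNA1 stood highest above 0 h with BMP4 (2.31), and IL8L2 without (3.45), followed there by MMP9 (2.91) and CCNA1 (2.32). CADM3 was lowest with BMP4 (−1.39), and SLC35F3 without (−1.14).

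Whether BMP4 changed these genes can be tested only at 12 h, where both arms have a pair of arrays and the members were not chosen on the values. Of the 49 members, 1 was called at an adjusted p under 0.05. RCC1 was lower with BMP4, at 629 ± 219 signal units against 1714 ± 227 in untreated explants (SD, n = 2 each), a log2 difference of −1.44 ± 0.25 (SE) with an adjusted p of 0.0382 by limma over 28302 probe sets. No member was called higher. Over the 11674 genes tested, 0.343% were called lower and 0.685% higher, so the 1 call of 49 (2.04%) is to be read against 1.03% called in either direction. The RCC1 call was lost without BMP4 array A (adjusted p = 0.127 by limma), without untreated array A (0.131), without the low-signal filter (0.0816) and without the variance trend (0.417).

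At an unadjusted p under 0.05 by limma, 8 members were lower with BMP4 (16.3%, against 5.19% of genes tested) and 2 higher (4.08%, against 5.77%). RGS2 differed by −1.03 ± 0.22 (SE) on the log2 scale, at 403 ± 33.6 signal units with BMP4 and 855 ± 121 without (SD, n = 2 each), with an adjusted p of 0.0910 by limma. MTHFD2 differed by −1.02 ± 0.23, at 427 ± 96.4 and 885 ± 94.7, with an adjusted p of 0.106 by limma. Neither pair of arms overlapped, and neither gene passed the adjusted threshold.

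The other 6 lower members were SLC7A3, IRF7, PIK3R5, SCG2, SLC35F3 and RCC1, those besides RCC1 by −0.59 to −0.89 with adjusted p of 0.223 to 0.505 by limma. A further SLC7A3 probe set, with a mean 3 h signal of 199, ran the other way at 12 h (172 and 158 with BMP4, 36.3 and 156 without). Further probe sets of PIK3R5 (45.1 and 87.0 against 178 and 240) and SCG2 (54.5 and 90.5 against 134 and 175) had BMP4 lower. CCNA1 (0.62 ± 0.25, adjusted p = 0.495 by limma) and JDP2 (0.82 ± 0.36, adjusted p = 0.558) were the 2 higher. MMP9 differed by −1.06 ± 0.52, more than RGS2 and MTHFD2, but its arms overlapped and its adjusted p was 0.622 by limma.

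The median difference over the members at 12 h was −0.21, against −0.00 over all genes, with 33 lower (67.3%, against 50.4% of all genes) and 16 higher (against 49.6%). That median moved with single arrays: it was −0.06 without BMP4 array A and −0.05 without untreated array B, with 27 of the 49 lower each time, and −0.31 without BMP4 array B. The arms did not overlap with BMP4 lower in 12 members (24.5%, against 19.5%) and with BMP4 higher in 5 (10.2%, against 20.4%). Those 5 were CCNA1, PDE4C, FAM114A2, ABCG2 and JDP2. CCNA1 and JDP2 had no further probe set, and none of PDE4C reached a mean 3 h signal of 150. The further probe sets of ABCG2 and FAM114A2 that reached it did not show the same at 12 h. That of ABCG2 had BMP4 lower without overlap, at 115.6 and 115.9 against 178 and 130. Those of FAM114A2, with mean 3 h signals of 755 and 766, had arms that overlapped. A difference of at least 1 on the log2 scale, was seen with BMP4 lower in 4 members (8.16%, against 1.32% of all genes), RCC1, MMP9, RGS2 and MTHFD2, and with BMP4 higher in none (against 1.61% of all genes).

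The 3 h and 24 h differences rest on 1 array an arm and on arrays that chose the members, and are described only. At 3 h the arms differed by under 0.5 in 41 of the 49, with a median of −0.09 for BMP4 minus untreated. Of the members 34 were lower with BMP4 (69.4%, against 51.6% of all genes) and 15 higher (against 48.4%). PDE4C (0.96), CCLL4 (0.82), DIO3 (0.70) and PMEPA1 (0.67) were the highest, and MMP9 (−1.01), AFAP1 (−0.94), TUBD1 (−0.76) and IL8L2 (−0.56) the lowest. MMP9 alone was lower by at least 1 (2.04%, against 2.27% of all genes), and none was higher by that much (against 2.22%).

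At 24 h, 29 members were lower with BMP4 (59.2%, against 49.6% of all genes), and 20 were higher (against 50.4%). The difference was at least 1 with BMP4 lower in 7 (14.3%, against 4.74% of all genes) and with BMP4 higher in none (against 4.63%). MMP9 (−2.68), IL8L2 (−2.54) and TSPAN1 (−1.85) differed most, followed by RGS2 (−1.43), TNFRSF6B (−1.26), HBEGF (−1.14) and PIK3R5 (−1.11). For MMP9, IL8L2, TNFRSF6B and HBEGF the untreated array was still at least 1 above 0 h and the BMP4 array was within 1 of it. For TSPAN1, RGS2 and PIK3R5 the BMP4 array was under the 0 h level and the untreated array above it. JDP2 was the highest of the members at 24 h (0.84). The ACTB 3′ to 5′ ratio was 5.67 on the BMP4 array and 3.72 on the untreated array at 24 h, and its part in these differences was not tested.

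**Figure D4:**
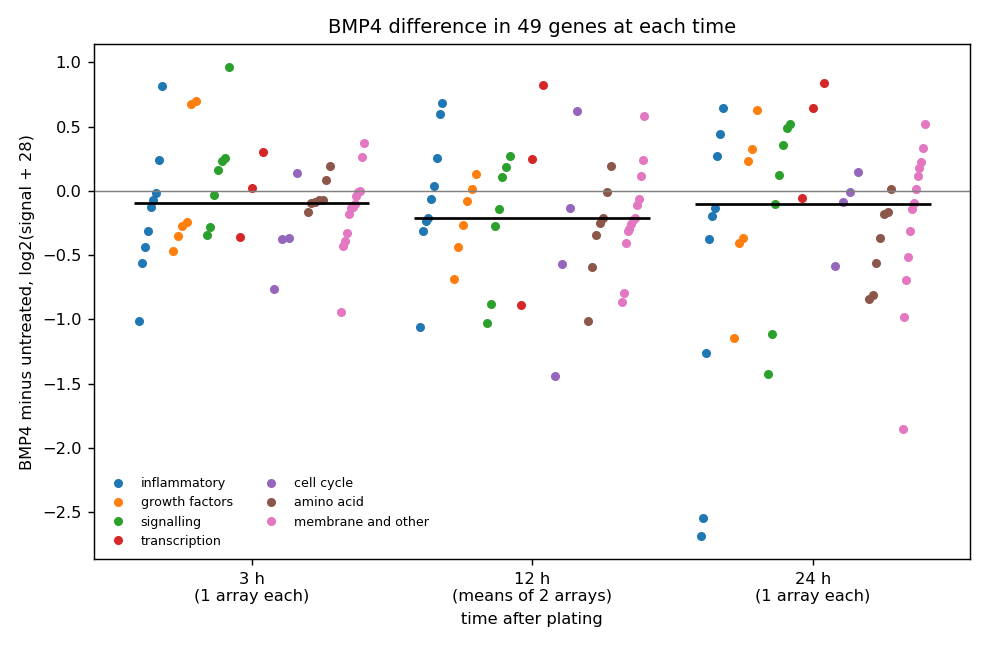
BMP4 minus untreated in log2(signal + 28) for the 49 genes at 3 h (1 array each), 12 h (means of 2 arrays) and 24 h (1 array each), coloured by role, with the median as a black bar. The medians are −0.09, −0.21 and −0.10, and the lowest points at 24 h are MMP9 and IL8L2.

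Further probe sets of the same genes were read on the same arrays that chose the members, so their counts describe the set and test nothing. Whether they share probes with the chosen probe set was not checked. Of the 49 members, 24 had 1 probe set and 25 had 59 further ones. Both log2 steps of the rule were met by 10 of the 59 (16.9%), against 0.155% of all further probe sets, those of the members included. Of 16 with a 3 h signal of at least 150, 8 met both steps (50%, against 0.402%) and 14 moved in the same direction. MTHFD2, SLC1A4, PIK3R5, PCSK6, SCG2, DDHD2 and FAM114A2 each had such a probe set. One at that signal missed a step in the same direction for CADM3, YARS, ABCG2, AFAP1, PMEPA1 and DDHD2. That of SLC7A3 was above 0 h at 3 h in both arms, but its BMP4 array at 24 h was above the 3 h mean. Dimmer SLC7A3 probe sets, with mean 3 h signals of 103 and 142, met both steps. That of TUBD1 stood lower at 3 h than at 0 h in both arms (−0.29 with BMP4 and −0.51 without). No further probe set of ADAMDEC1, ALDH1L2, CTXN1, GNAZ, IL18, LOC424577, PDE4C, PIK3CD, PTAFR, SLC35F3 or TIMP2 reached that signal. None of these met both steps. For these genes and for TUBD1, CADM3, YARS, ABCG2, AFAP1 and PMEPA1, the full pattern thus rests on 1 probe set.

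The wider pathways were read from gene lists, with 2.33% of all genes as the background for coming up at 3 h. Of 28 genes measured on the immediate early list, 5 came up in both 3 h arrays (JUN, ATF3, KLF2, KLF6 and BTG2). None of them met the 24 h step. The list holds transcription factors and other genes, BTG2 among the latter. KLF2 read 153 at 0 h, then 1163 at 3 h, 461 and 600.4 at 12 h and 992 at 24 h with BMP4, and 1175, 323 and 616, and 751 without. ATF3, a stress-induced repressor of the ATF family, read 167 at 0 h, 571 with BMP4 and 826 without at 3 h, and 389.9 with BMP4 and 216 without at 24 h. All 5 of these genes had at least 1 of the 24 h arrays under 1 below the 3 h mean, which keeps them outside the 49. The median of the list at 3 h was 0.39 above 0 h with BMP4 and 0.40 without, against −0.01 over all genes in each arm.

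Of 33 NF-kB and inflammatory genes, 4 came up, IL8L2 and MMP9 among the members, NFKBIZ and CCL20 outside. CCL20, a chemokine, read 21.6 at 0 h, then 475 at 3 h, 289.6 and 630.5 at 12 h and 28.9 at 24 h with BMP4, and 378, 341 and 1308, and 287 without. Like IL8L2 it was low with BMP4 at 24 h and not without, and its untreated 24 h array kept it outside the rule. Of 29 unfolded protein and integrated stress response genes, 6 came up: SLC7A3, MTHFD2 and PSAT1 among the members, and HERPUD1, SLC38A2 and GPT2 outside. The median of that list at 3 h was 0.52 above 0 h with BMP4 and 0.57 without.

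Of 22 MAPK phosphatase and ERK feedback genes, 2 came up (RGS2 and DUSP10), of 31 serum, SRF and YAP targets 2 (HBEGF and INHBA) and of 17 p53 and growth arrest genes 2 (CDKN1A and BCL6). The lists of heat shock (HSPB1), oxidative stress (HMOX1), hypoxia and glycolysis (P4HA2) and TGF-beta, Wnt, Notch and FGF genes (SKIL) had 1 each. None of 33 ribosome biogenesis genes and none of 22 sterol and fatty acid genes came up by that measure. In the 12 h test, with 0.343% of genes called lower and 0.685% higher, DUSP4 (−1.40 ± 0.20, adjusted p = 0.0138 by limma) and IL17RD (−1.33 ± 0.23, adjusted p = 0.0355) of the 22 MAPK and ERK feedback genes were called lower with BMP4. RGS2, the member on that list, was not called. VLDLR was called higher (1.24 ± 0.20, adjusted p = 0.0242 by limma) among the 29 stress response genes, and none of the 3 members on that list was called, though MTHFD2 and SLC7A3 had an unadjusted p under 0.05. BTG2 (0.92 ± 0.14, adjusted p = 0.0177 by limma), CXCL12 (1.82 ± 0.19, adjusted p = 0.00207) and RHOB (0.67 ± 0.12, adjusted p = 0.0391) were called higher on the immediate early, NF-kB and serum lists, which had no call lower. On the list of 37 TGF-beta, Wnt, Notch and FGF genes, which holds no member, 4 were called higher and 5 lower.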

How the data were processed

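The authors deposited a table of linear signal intensity per probe set for 9 Affymetrix chicken arrays, which the submitters' processing notes credit to MAS5; its version and scaling target are not given in the sources used here. The trimmed means were alike, so no further scaling was applied. Here 28 was added and log2 taken. Of 38535 probe sets, 96 controls were left out, 27168 carried 1 gene symbol, 177 several and 11094 none, from the array annotation matched to chicken RefSeq genes (GRCg7b). A gene's probe set with the highest mean represented it.

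The 12 h difference was tested with limma 3.58.1 (R 4.3.3) in a fit of 7 group means with a variance trend, on 28302 probe sets above the 40th percentile of their own array on at least 2 arrays. It leaves 2 residual degrees of freedom, both from the 12 h pairs. Each SE and p-value uses a variance moderated towards the trend over all probe sets tested. P-values are two-sided and Benjamini-Hochberg adjusted over all probe sets tested. On simulated 12 h data with 29549 probe sets tested, 39% of log2 changes of 1 and 89.9% of changes of 2 were recovered. The simulated spread depended on signal alone, as the variance trend assumes, and the changes were placed above the 40th percentile of mean signal. Recovery in the real data may therefore be lower. The number of arrays limits the precision.

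The members, roles and gene lists were chosen with earlier results of these data known. Genes given with values on every array are those named by the rule (the 12 highest peaks, list members, called genes, the 4 at each end of the share left and of the 3 h difference) and further members added to fill each role after their values were seen. Alternatives covered the amount added, scaling, filter, variance trend, probe set choice, rule steps, replicate letter and each 12 h array left out.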

Additional observations from a re-analysis of the deposited data

Results flagged for a closer look

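SLC35F3 differed in direction between times. BMP4 minus untreated was −0.80 on the log2 scale at 12 h, where both BMP4 arrays (238 and 249) lay below both untreated arrays (301 and 647), and 0.52 at 24 h, where the BMP4 array read 308 and the untreated array 206. The 12 h value was −0.28 without untreated array B and −1.31 without untreated array A. A further SLC35F3 probe set, with a mean 3 h signal of 107, did not show this change of direction. Its 12 h arms overlapped, at 50.9 and 133 with BMP4 and 98.25 and 72.0 without. Its 24 h arrays read 61.9 with BMP4 and 62.55 without. The difference between the times was not tested, and the 24 h value rests on 1 array an arm.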

How the results depend on the processing

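The number of members was 76 with log2 steps of 0.8, 17 with steps of 1.5, and 32 (29 of them shared) when all probe sets of each gene were averaged. The 174 probe sets called at 12 h became 86 without the low-signal filter, 0 without the variance trend (2339 at an unadjusted p under 0.05 by limma), 323 at an adjusted p under 0.10, and 105 to 180 with 1 of the 12 h arrays left out. Called members went to 0 without the filter, 0 without the trend (9 at an unadjusted p under 0.05 by limma), 2 at an adjusted p under 0.10 (RCC1 and RGS2), and 0 to 2 with 1 array left out. With the 12 h letter as a replicate block, 1104 probe sets and 8 members (RCC1, RGS2, MTHFD2, SLC7A3, CDKN1A, MMP9, PIK3R5 and IRF7) were called; the letters are not known to pair the arrays, and the A minus B differences of the arms correlated at 0.127. The cause of these changes was not tested. The members' median BMP4 minus untreated at 12 h, −0.21, ran from −0.31 to −0.05 with 1 array left out and was −0.07 when probe sets were averaged. The median share of the rise left, 24.6%, ran from 22.6% to 30.1%. No result reversed. Added amounts of 14 and 56 gave 52 and 44 members. With 1 array a group outside 12 h, nothing between 0, 3 and 24 h has a replicate check.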

Other observations

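On the chicken genome the members were spread over 22 chromosomes. SLC6A9 and LOC424577 lie on chromosome 8 with 1 annotated gene between them in the GRCg7b gene order, and the next closest pair of members, DOC2B and TUBD1 on chromosome 19, has 27 genes between them. LOC424577 read 84.8 at 0 h, then 274 at 3 h, 126 and 129 at 12 h and 65.2 at 24 h with BMP4, and 351, 86.6 and 152, and 105 without.

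TCF21 and ETS1, held among the heart field and neural crest markers, came up at 3 h without meeting the 24 h step. TCF21, a factor of pharyngeal and epicardial progenitors, read 738 at 0 h and 2226 with BMP4 and 1984 without at 3 h. ETS1 read 1229 at 0 h and 4461 with BMP4 and 5082 without at 3 h.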
